A study of Mus musculus with 6 samples.

Results

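Afp, Mst1, Slco1a4, Ugt2b38, Agtr1a and Grb14 are 6 genes, labelled liver-type here, whose array signals were higher in XY than in XX mouse oocytes. They were chosen by their log2 differences between XY and XX in these same 6 arrays, so those differences are given as a description, without a test, and support nothing by themselves. The platform annotation pairs 11 of the array's 45037 probe sets (18193 genes among those with 1 symbol) with exactly 1 of these symbols: 5 with Afp, 2 with Grb14 and 1 with each of the other 4 genes. The XY group held 3 samples from XY females of the strain B6.Y(TIR), which carry an X and a Y chromosome and yet form ovaries. The XX group comprised 3 samples from their XX littermates. All were germinal vesicle (GV) oocytes, that is, fully grown and still arrested before the first meiotic division with the nucleus intact. The females were 25 to 29 days old and had been given 5 IU of equine chorionic gonadotropin 45 to 47 hours before collection, the cumulus cells were removed by pipetting, and 10 oocytes made up each sample. RNA was primed with oligo(dT), amplified in 2 cycles and measured on an Affymetrix array, so each value is a pool of 10 cells in which fewer transcripts per cell and fewer cells with the transcript cannot be told apart.

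In the liver, hepatocytes release most plasma proteins, take up organic anions and bile acids from the blood, and attach glucuronic acid to steroids and foreign compounds before excretion. A small set of transcription factors, among them the HNF1, HNF4, FOXA and C/EBP proteins, is shared by many of these genes. The fully grown oocyte is a different setting, since it is nearly silent in transcription and holds mRNA stored during growth. Some of the 6 genes also have known roles outside the liver, such as Agtr1a in kidney and blood vessels and Slco1a4 at the blood-brain barrier.

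Levels below are log2 of the quantile-normalized intensity plus 9, and intensities are the values as deposited. The Y-linked gene Eif2s3y followed the labels, with intensities of 352 to 673 on the XY arrays and 0.241 to 18.3 on the XX arrays. XX 1 stood apart from XX 2 and XX 3. On the first principal component of 12442 genes the XY arrays lay at 28.3 to 37.2, XX 1 at -14.0, and XX 2 and XX 3 at -41.3 and -43.2. The control probe set at the 5' end of Actb read 54.7 to 62.7 on the XY arrays, 45.9 on XX 1, and 184 and 188 on XX 2 and XX 3. The values of the 6 genes are therefore also given without XX 1 and against XX 1 alone.

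Every XY array lay above every XX array in the brightest probe set of each of the 6 genes, by a mean log2 difference of 2.15 (Ugt2b38) to 3.12 (Mst1) with a median of 2.88. Of the 11 probe sets, 9 reached the array's median signal on at least 3 arrays and were kept. In all 9, every XY array lay above every XX array. The same held for 18.5% of the 22997 kept probe sets, and nothing is read from the members' count because it was fixed by their choice. By limma at an adjusted p of 0.05, 10.5% of the kept probe sets were called and 5.08% were higher in XY. The probe sets of Mst1 and Agtr1a were below the median on all 3 XX arrays, so these 2 were kept through their XY arrays only. By size of rise among 12442 genes, Mst1 ranked 6, Slco1a4 8, Agtr1a 10, Afp 12, Grb14 13 and Ugt2b38 47.

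**Figure D1:**
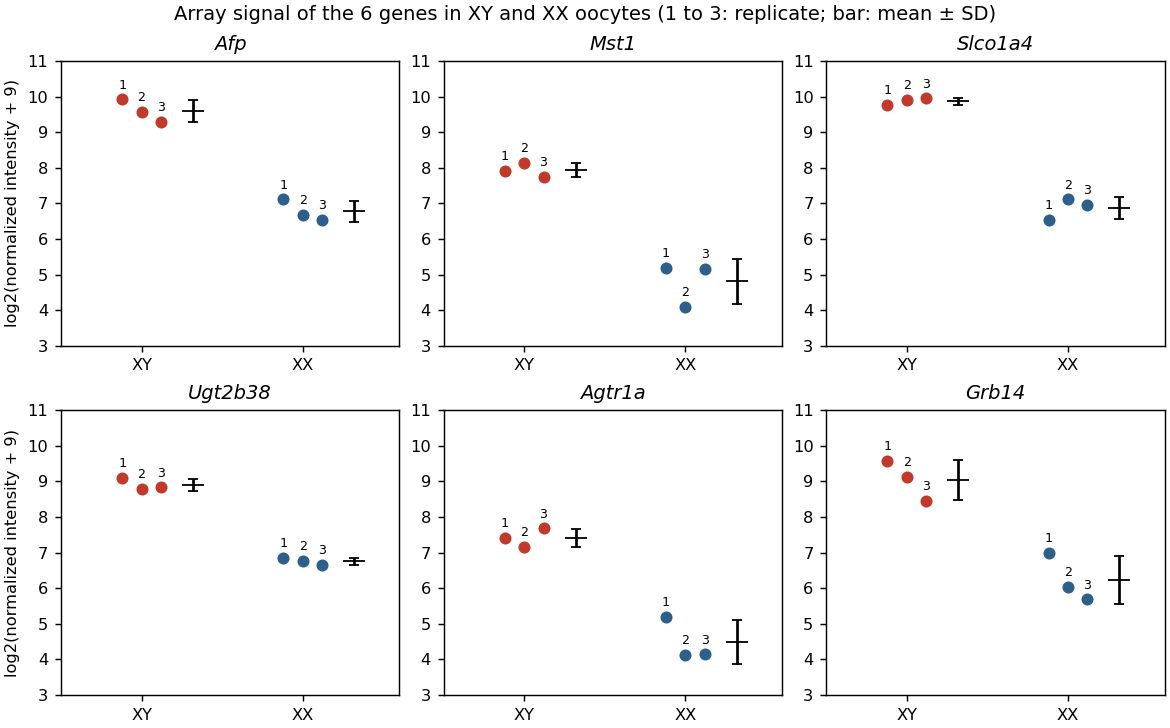
Level of each gene's brightest probe set, as log2(quantile-normalized intensity + 9), in 3 XY arrays (red, left) and 3 XX arrays (blue, right); numbers are replicates and bars show mean ± SD. In all 6 panels the XY points sit above the XX points, and the XX points of Mst1, Agtr1a and Grb14 spread over 1.08 to 1.30 log2 units.

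The first pair encodes secreted plasma proteins. Afp (chr5:90490714-90508907, GRCm38.p6), the albumin-like carrier protein made by yolk sac and fetal liver and silenced there after birth, had intensities of 1014, 575 and 508 in XY 1, XY 2 and XY 3, against 107, 101 and 97.4 in XX 1, XX 2 and XX 3. The XX values were close together, and the lowest XY value was well above them. Its level averaged 9.60 ± 0.31 in XY and 6.78 ± 0.30 in XX (SD, n = 3 each), a log2 difference of 2.82 ± 0.25 (SE), or 7.05-fold. The other Afp probe sets had smaller differences. Probe set 1436879_x_at had intensities of 157 to 234 in XY and 38.2 to 51.4 in XX, with a log2 difference of 1.93 ± 0.13. For 1436881_x_at and 1416646_at the differences were 1.47 ± 0.52 and 1.41 ± 0.27. On XX 1 and XX 2 these probe sets lay at percentiles 45.4 to 56.2, and on XX 3 lower, at 21.0 and 32.6. The fifth, 1436880_at, read 18.7, 5.04 and 5.81 in XY against 3.97, 3.23 and 1.43 in XX, was not kept, and overlapped between the groups on the normalized scale. The size of the Afp difference thus ran from 0.51 to 2.82 over the gene's 5 probe sets, and the x_at suffix marks probe sets whose probes can match more than one transcript.

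The Afp promoter is shown because the gene's postnatal silencing has been traced to its upstream region. The window, from RefSeq on GRCm38.p6, runs from 250 bases before to 50 after the annotated start (chr5:90490464-90490763, plus strand). Capitals mark GTTAAT, the core of an HNF1 site, and TATAAA:
Afp: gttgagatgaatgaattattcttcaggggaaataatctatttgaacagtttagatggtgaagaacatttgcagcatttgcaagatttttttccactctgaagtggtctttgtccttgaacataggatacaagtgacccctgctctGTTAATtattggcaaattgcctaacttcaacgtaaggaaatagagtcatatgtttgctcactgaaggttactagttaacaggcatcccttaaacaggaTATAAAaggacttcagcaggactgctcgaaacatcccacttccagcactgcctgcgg
GTTAAT, searched on both strands, was in 7.1% of 32851 promoter windows of the same length, and TATAAA in 13.6%. In the Afp window GTTAAT lies 105 bases before the annotated start and overlaps TAATTA (5.29% of windows) by 4 bases, and TATAAA lies 7 bases before it. These matches are descriptions of letters, not of bound factors. The levels of 2 known postnatal repressors of Afp in mouse liver, named after their values were seen, did not pass the test: Zbtb20 had a log2 difference of 0.40 ± 0.18 and Zhx2 of 0.58 ± 0.40 (limma adjusted p = 0.177 and 0.350).

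Mst1 (chr9:108080409-108085027) encodes macrophage-stimulating protein, a relative of hepatocyte growth factor that the liver secretes as an inactive precursor. Its intensities were 251, 218 and 178 in XY, against 23.5, 7.38 and 26.5 in XX. All XX signals were below the array's median, so the XX level is close to what dim probe sets show on this array. The level was 7.94 ± 0.20 in XY and 4.82 ± 0.63 in XX (SD, n = 3 each), a log2 difference of 3.12 ± 0.38 (SE). Because the XX values are dim, this difference depended on the pseudocount: it was 3.70 without one and 2.37 with 32. Detection calls were not used here, so whether Mst1 was present in XX oocytes is not known. The Mst1 promoter window held CCAAT (37.4% of windows) once and none of the other 7 motifs searched, and 56.7% of its bases were G or C. Those 7 are the motifs spelled out for Afp and Ugt2b38 and the E-box CACGTG, which 7.15% of windows held.

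The second pair handles small molecules. Slco1a4 (chr6:141805438-141856284), an uptake transporter for bile acids, steroid conjugates and other organic anions, had intensities of 902, 722 and 793 in XY, against 69.3, 143 and 139 in XX. XX 1 was the lowest array, and the XY values were the tightest of the 6 genes on the log2 scale, with a range of 0.19. The level was 9.87 ± 0.10 in XY and 6.87 ± 0.30 in XX (SD, n = 3 each), a log2 difference of 3.00 ± 0.18 (SE), or 8.02-fold. Slco1a5, a close relative in the same cluster on chromosome 6 that was named after its values were seen, had intensities of 1235, 677 and 594 in XY and 811, 685 and 633 in XX. These overlapped, and its log2 difference of 0.50 ± 0.31 did not pass (limma adjusted p = 0.298).

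Ugt2b38 (chr5:87409939-87424203) belongs to the UDP-glucuronosyltransferases, which conjugate steroids and foreign compounds for excretion. Its intensities were 571, 336 and 368 in XY, against 87.7, 108 and 106 in XX. The XX arrays were nearly equal, with a range of 0.21 on the log2 scale, and all XY arrays were higher. The level was 8.90 ± 0.17 in XY and 6.75 ± 0.10 in XX (SD, n = 3 each), a log2 difference of 2.15 ± 0.11 (SE), or 4.44-fold. Genes of the Ugt2b cluster are much alike in sequence, and the probe sequences were not used here, so signal from a relative cannot be set aside. The probe sets annotated to Ugt2b1, Ugt2b5, Ugt2b34, Ugt2b35, Ugt2b36 and Ugt2b37 were not kept, with the highest at an intensity of 46.2.

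The Ugt2b38 promoter (chr5:87424154-87424453, minus strand, GRCm38.p6) is shown for its base composition, with 34% G or C, at percentile 2.86 of all windows. Capitals mark TAATTG on either strand, the related TAATTA, and AGGTCA:
Ugt2b38: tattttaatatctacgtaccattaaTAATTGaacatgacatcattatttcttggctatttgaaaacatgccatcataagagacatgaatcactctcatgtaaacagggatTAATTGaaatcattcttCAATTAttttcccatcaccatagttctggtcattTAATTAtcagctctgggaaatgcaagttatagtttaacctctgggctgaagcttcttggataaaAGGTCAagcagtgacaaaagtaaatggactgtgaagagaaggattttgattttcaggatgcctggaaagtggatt
TAATTG, a homeodomain core, occurred 3 times and was in 8% of all windows. TAATTA occurred once. The letters AGGTCA, the hexamer that nuclear receptors bind, which was in 16.3% of windows, occurred once, 25 bases before the start. TGTTTAC, a forkhead core found in 3.65% of windows, also occurred once, in its reverse form. The Slco1a4 window was similarly poor in G and C at 40.7%, as was that of Afp at 40%, against a median of 52.7% over all windows. Slco1a4 held CCAAT 2 times on the reverse strand and none of the other motifs.

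The third pair acts in hormone signalling. Agtr1a (chr13:30336356-30382867), the type 1a receptor through which angiotensin II constricts vessels and stimulates aldosterone release, had intensities of 172, 115 and 171 in XY, against 23.4, 7.65 and 8.36 in XX. XX 1 was the highest XX array, and all 3 XX signals were below the array's median. The level was 7.42 ± 0.26 in XY and 4.48 ± 0.62 in XX (SD, n = 3 each), a log2 difference of 2.93 ± 0.39 (SE). It was 3.69 without a pseudocount and 2.08 with 32. The near-identical receptor gene Agtr1b, on another chromosome, also rose, by 1.20 ± 0.28 (limma adjusted p = 0.0360), with intensities of 51.7, 34.5 and 36.7 in XY against 19.3, 5.90 and 8.64 in XX. Agtr1b lay below the array's median on all 3 XX arrays, so it too was kept through its XY arrays only. It kept its call in 7 of the 13 alternatives that measured it. It lost it without XX 2 or XX 3 (limma adjusted p = 0.0984 and 0.109), and with the Actb covariate its log2 difference was 0.56 (adjusted p = 0.147). Cross-hybridization between these 2 genes was not tested.

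Grb14 (chr2:64912476-65022766), an adaptor that binds the activated insulin receptor and restrains its kinase, was the most variable of the 6. Its intensities were 793, 422 and 288 in XY, against 96.9, 59.0 and 43.7 in XX. The groups did not overlap, but XY 1 was far above XY 3 and XX 1 far above XX 3. The level was 9.05 ± 0.56 in XY and 6.24 ± 0.67 in XX (SD, n = 3 each), a log2 difference of 2.81 ± 0.51 (SE). The other Grb14 probe set, 1457526_at, was among the dimmest on the array, at 1.67, 1.24 and 0.752 in XY against 0.789, 0.948 and 8.88 in XX. It was not kept and showed no rise, with a log2 difference of -0.26 ± 0.29.

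The Grb14 promoter (chr2:65022717-65023016, minus strand, GRCm38.p6) is shown as the opposite of the AT-rich windows above. Capitals mark its 30 CG dinucleotides, against a median of 7 per window:
Grb14: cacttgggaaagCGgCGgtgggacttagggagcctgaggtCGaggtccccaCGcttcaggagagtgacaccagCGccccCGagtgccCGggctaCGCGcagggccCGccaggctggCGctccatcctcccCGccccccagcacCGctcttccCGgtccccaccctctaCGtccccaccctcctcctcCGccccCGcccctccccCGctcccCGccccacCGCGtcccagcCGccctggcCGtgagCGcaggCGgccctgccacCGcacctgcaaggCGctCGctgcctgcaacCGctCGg
Of its bases 75.3% were G or C, and none of the 8 motifs was found. RefSeq windows were matched for 5 of the 6 genes, all but Agtr1a. No motif searched was common to these 5 windows, and a missing match says only that these letters are not in this window.

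Leaving out XX 1 gave log2 differences of 2.99 for Afp, 3.34 for Mst1, 2.84 for Slco1a4, 2.20 for Ugt2b38, 3.32 for Agtr1a and 3.20 for Grb14. Against XX 1 alone, the array whose signal at the 5' end of Actb was as low as on the XY arrays, the differences were 2.48, 2.74, 3.34, 2.06, 2.22 and 2.06 in the same order of genes. XX 1 lay above the mean of XX 2 and XX 3 by 1.12 in Grb14, 1.07 in Agtr1a, 0.57 in Mst1, 0.50 in Afp and 0.14 in Ugt2b38. In Slco1a4 it lay on the other side, by -0.50. With the ratio of signals at the 3' and 5' ends of Actb as a covariate, on the log2 scale, the differences ran from 2.01 (Ugt2b38) to 3.34 (Slco1a4).

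The label of liver-type genes was set against 10 genes that define hepatocytes, of which 9 had a probe set of their own. Of these, 7 were not kept: Alb, Ttr, Ahsg, Apoa1, Apoa2, Fgb and Serpina1b. Their intensities ran from 0.576 to 35.1 over the 6 arrays, and their median place among an array's signals was percentile 22.1. Alb, the main plasma protein gene and the neighbour of Afp, read 21.6, 32.4 and 32.4 in XY against 24.3, 23.5 and 21.6 in XX, and Fgb read at most 1.09. The urea cycle gene Cps1 and the transcription factor gene Hnf4a were measured, with log2 differences of 0.52 ± 0.18 and 0.35 ± 0.27 (limma adjusted p = 0.0937 and 0.400). Neither of these 2 passed, and 1 of them had an unadjusted p under 0.05. The summed signal of the 9 markers was 263 to 316 in XY and 199 to 229 in XX in normalized intensity, with 5 of the 9 below the median on all arrays. The sum of 19 oocyte markers was 109190 to 114826 in XY and 123174 to 134379 in XX, and 18 of them were kept, at percentile 81.7 or above on every array. The 9 hepatocyte markers thus spread widely: Fgb was at percentile 3.06 or below, Alb at 41.0 to 52.4, Hnf4a at 49.1 to 66.01 and Cps1 at 68.1 to 74.7. Liver-type is thus only a label for the 6 genes, and some of them, such as Agtr1a, have known roles outside the liver.

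**Figure D2:**
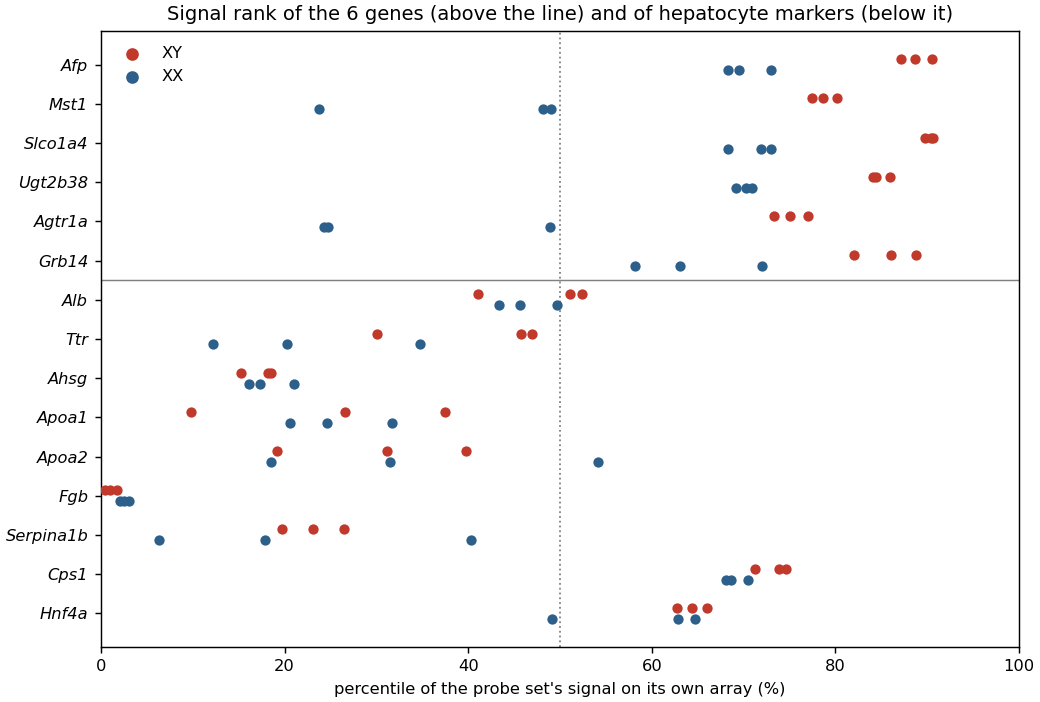
Percentile of each probe set's intensity among all 45037 on its own array, for the 6 genes (above the line) and 9 hepatocyte markers (below it), in XY (red, upper) and XX (blue, lower); the dotted line is the median. The XY points of the 6 genes lie between 73.3 and 90.6, whereas Alb, Ttr, Ahsg, Apoa1, Apoa2, Fgb and Serpina1b lie at 54.2 or below; percentiles rank signals and do not compare RNA amounts between genes.

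Gene groups linked to the liver were compared in the same arrays through 6 lists. These were plasma proteins, the albumin family, hepatocyte enzymes, hepatocyte transcription factors, organic anion transporters and UDP-glucuronosyltransferases. The lists were drawn up by family or function, and not every gene in them is particular to the liver. With the chosen genes left out, they held 165 genes, of which 139 were on the array and 66 were kept and tested. Of the 66, 8 rose and 2 fell, or 15.2%, against 13.2% of all 12442 genes (1643 genes, by limma at an adjusted p of 0.05). Rises made up 12.1% of the 66 and 7.86% of all genes, falls made up 5.34% of all genes, and the median log2 difference was 0.13 against 0.07 for all genes. The share of calls was thus near the background. No tested gene of these lists reached 2.15, the smallest difference of the chosen genes. Only 47 of all 12442 genes did, the chosen genes among them. Nothing is read from this gap, because the 6 genes were chosen by their differences and left out of the lists. The largest difference in the lists was 1.55 ± 0.45 for C9, a complement component gene, which did not pass (limma adjusted p = 0.0629).

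Among 15 tested plasma protein genes 1 rose, or 6.67% against 7.86% of all genes, and none fell. This was the prothrombin gene F2, by 0.68 ± 0.16 (limma adjusted p = 0.0366). Of 16 hepatocyte enzyme genes 2 rose, or 12.5% against 7.86% of all genes. Gnmt, glycine N-methyltransferase, had intensities of 324, 166 and 255 in XY against 66.5, 119 and 99.2 in XX, without overlap, and rose by 1.46 ± 0.21 (adjusted p = 0.00935). The cytochrome P450 gene Cyp2c29 rose by 0.86 ± 0.21 (0.0381), while Hpd, of tyrosine breakdown, and Dpys, of pyrimidine breakdown, had differences of 0.73 and 1.09 and did not pass (0.05004 and 0.0555). Of 17 transcription factor genes, Tbx3 rose by 1.01 ± 0.25 (0.0420) and Cebpb fell by 1.18 ± 0.29 (0.0415), or 11.8% called against 13.2% of all genes. Of the albumin family list, Afm, which lies near Afp, was the only other gene tested, at -0.15 ± 0.25 (0.704, with none at an unadjusted p under 0.05). Albfm1, another albumin superfamily gene near Afp, was not on the list and rose by 0.65 ± 0.16 (0.0439). It kept its call in 6 of 17 alternatives.

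Of 15 tested transporter genes 3 rose and 1 fell, or 26.7% against 13.2% of all genes, with a median of 0.50. Slco5a1 rose by 1.12 ± 0.17 (limma adjusted p = 0.0114), and the efflux pump genes Abcg2 and Abcb1b by 1.32 ± 0.24 (0.0167) and 0.81 ± 0.16 (0.0207). Abcg2 lay below the array's median on all 3 XX arrays and was kept through its XY arrays only. The efflux pump gene Abcc3 fell by 1.06 ± 0.27 (0.0422), and the prostaglandin transporter gene Slco2a1 had a difference of 0.75 ± 0.22 (0.0647). Of the glucuronosyltransferase list, Ugt8a, Ugdh and Ugp2 were tested, and 1 of these 3 rose, or 33.3% against 7.86% of all genes. The other 9 on the array, all Ugt2b, Ugt2a or Ugt3a genes, were not kept. This share thus does not cover the close relatives of Ugt2b38. The gene that rose was Ugt8a, which makes galactosylceramide, by 0.84 ± 0.18 (0.0284). Its deposited intensities were 757, 622 and 648 in XY against 275, 568 and 647 in XX, which overlap. The counts of calls changed whenever 1 array was left out. The 10 list genes called became 3, 2 and 3 without XY 1, XY 2 or XY 3. They became 19, 3 and 3 without XX 1, XX 2 or XX 3. Of the 10, Gnmt and Slco5a1 each passed in 16 of 17 alternatives, and 4 of the 10 passed with the deposited values, 2 with the replicate number as a block and 1 with the Actb ratio as a covariate.

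The pathways that the secreted and signalling members belong to were read from 3 more lists. For Mst1, 0 of 6 tested genes of its pathway passed limma's test, with none at an unadjusted p under 0.05. Its receptor gene Mst1r was dim, at 36.1, 37.8 and 18.1 in XY and 52.2, 24.9 and 40.0 in XX, and the groups overlapped (log2 difference -0.41 ± 0.31, adjusted p = 0.405). Of 8 renin-angiotensin genes 1 rose, Agtr1b, and none fell, or 12.5% against 13.2% of all genes, and the median was 0.06. The count was 2 without XX 1 and 0 without any other single array. The aminopeptidase gene Enpep had 0.76 ± 0.23 (adjusted p = 0.0682), and Agt, which encodes the precursor of angiotensin, was not kept.

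Of 21 tested genes of insulin receptor signalling, 1 rose and 2 fell, or 14.3% against 13.2% of all genes, with a median of -0.14. That share is near the background, and the count ran from 0 without XY 1 or XY 2 to 4 without XX 1. Insr, the receptor that Grb14 binds, had intensities of 40.0, 40.9 and 56.7 in XY and 71.4, 150 and 120 in XX, and fell by 1.12 ± 0.23 (limma adjusted p = 0.0230). The receptor substrate gene Irs1 rose by 1.27 ± 0.20 (0.0110), with 60.1, 60.4 and 66.2 in XY against 24.3, 16.1 and 17.1 in XX. Irs1 lay below the array's median on all 3 XX arrays and was kept through its XY arrays only. The transcription factor gene Foxo3 fell by 0.76 ± 0.16 (0.0239), and Igfbp1, a hepatic insulin-like growth factor binding protein gene, had 0.94 ± 0.28 (0.0669). The groups did not overlap in the 3 called genes, Insr, Irs1 and Foxo3. Their calls made this likely, so nothing is read from it. Over 16 alternatives Insr passed in 8, Irs1 passed in 12 of 13, and Foxo3 in 10 of 17.

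**Figure D3:**
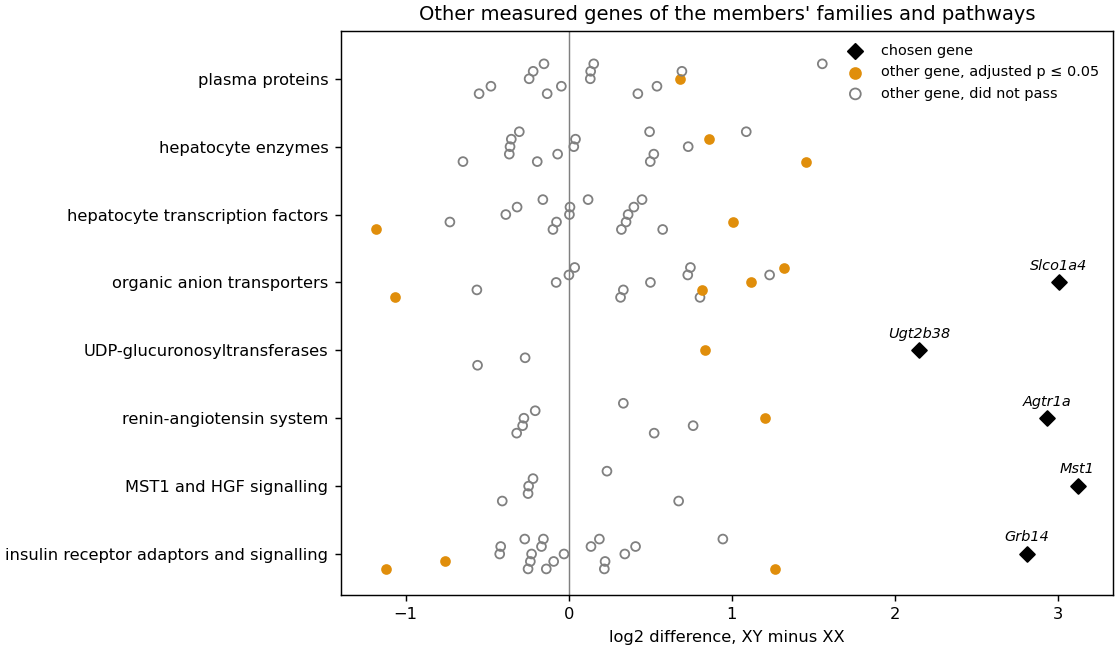
Log2 difference, XY minus XX, of every tested gene in 8 lists (rows), with the chosen genes as black diamonds and other genes filled where limma's adjusted p was at most 0.05. The albumin family list, and with it Afp, is not drawn. The diamonds lie at 2.15 to 3.12, to the right of all other genes of their lists, of which the largest is 1.55; that gap is fixed by the choice of the genes.

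Of 18 tested oocyte markers none rose and 3 fell by limma, or 16.7% called against 13.2% of all genes: Bmp15, an oocyte growth factor gene (-1.34, adjusted p = 0.0101), the gap junction gene Gja4 (-1.03, 0.0207) and the meiotic kinase gene Mos (-0.85, 0.0272). The oocyte count was 7 without XX 1 and 1 without any other single array. Of 13 tested granulosa and cumulus cell markers 11 had a positive difference, against 55.6% of all genes. Only 1 passed, or 7.69% against 7.86% of all genes called higher: Inha, the inhibin alpha gene, which rose by 1.58 ± 0.41 (limma adjusted p = 0.0475) and kept its call in 9 of 17 alternatives. The median of the 13 was 0.55, and the count was 4 without XX 1, 1 without XX 3 and 0 without any other single array. The gap junction gene Gja1 read 697, 283 and 289 in XY against 201, 47.1 and 18.7 in XX (2.59 ± 0.75, adjusted p = 0.0619). Within each group Gja1 was highest on replicate 1, as were Afp, Ugt2b38 and Grb14 on the normalized scale. Mst1, Slco1a4 and Agtr1a were not, and a link with Gja1 was not tested. The summed signal of the 18 granulosa markers on the array was 1422 to 1851 in XY and 808 to 1194 in XX, of which 3 markers were below the median on all arrays and Amh read at most 6.47. Of 4 tested blood cell markers 2 rose, or 50% against 7.86% of all genes, and all 4 differences were positive, with a median of 0.69. The 2 were the macrophage genes Csf1r, which rose by 1.40 ± 0.24 (0.0146), and Cd68, by 0.59 ± 0.14 (0.0392). Csf1r kept its call in 14 of 17 alternatives and Cd68 in 4 of 16, and the count was 3 without XX 1, 0 without XY 2 or XX 3 and 1 without any other single array. The sums of the 9 blood markers were 758 to 871 in XY and 350 to 536 in XX. Of these 9, 5 were below the median on all arrays, among them the leukocyte genes Ptprc and Cd52. Whether granulosa, cumulus or blood cells were present, and any part of them in the rise of the 6 genes, was not tested.

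The 6 genes lie on 5 chromosomes. Afp and Ugt2b38, both on chromosome 5, start 3.08 Mb apart. Among the 10 nearest tested genes on each side of every member, 117 genes in all, 14 rose and 5 fell, or 16.2% against 13.2% of all genes, with a median log2 difference of 0.19. Rises made up 11.97% of the neighbours and 7.86% of all genes. Beside Afp, Albfm1, another albumin superfamily gene, rose by 0.65 ± 0.16 (limma adjusted p = 0.0439), and the procollagen protease gene Adamts3 fell by 1.32 ± 0.24 (0.0167). Near Mst1, the glutathione peroxidase gene Gpx1, 259 kb away, rose by 2.76 ± 0.32 (0.00513), and Inka1 and 4930447F24Rik rose by 0.87 and 0.93. Gpx1 kept its call in all 17 alternatives, Inka1 in 10 and 4930447F24Rik in 6. The mean of its probe sets gave 0.19 for 4930447F24Rik (limma adjusted p = 0.603).

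Around Agtr1a 5 of 20 genes rose, or 25% against 7.86% of all genes, and none fell, with a median of 0.52. Prl8a2, Prl7d1 and Prl2a1, genes of the placental prolactin family, rose by 2.06 ± 0.24, 1.36 ± 0.23 and 0.79 ± 0.21 (limma adjusted p = 0.00522, 0.0144 and 0.0480), and E2f3 and Serpinb1a by 0.98 and 1.67. Near Slco1a4, Mgst1, a microsomal glutathione transferase gene, and the ganglioside synthase gene St8sia1 rose by 1.11 and 1.70, while the oocyte phosphodiesterase gene Pde3a and the predicted gene Gm28523 fell by 0.68 and 1.39. Grb14 had 2 neighbours that rose, Fap (limma adjusted p = 0.0218) and B3galt1 (1.61), and 1 that fell, Galnt3 (-0.72). Fap and B3galt1 left the test when any XY array was left out, so they were kept through their XY arrays only. Serpinb1a near Agtr1a was dim in XX, at a mean level of 4.26, and was likewise measured in 13 alternatives. The same limit may apply to it. These genes are among the rises counted for the neighbours. Ugt2b38 had 1 of each, Epha5 (0.92) and Rest (-0.86). The 19 calls among neighbours became 5, 6 and 5 without XY 1, XY 2 or XY 3 and 37, 10 and 3 without XX 1, XX 2 or XX 3.

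**Figure D4:**
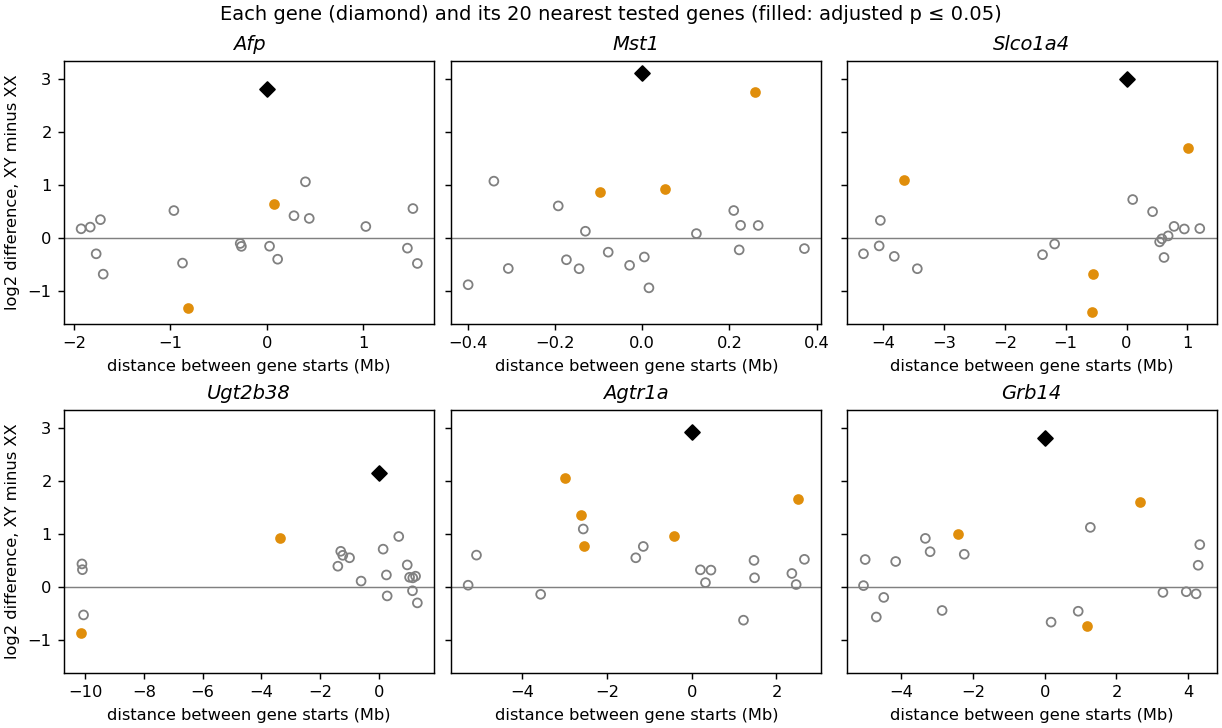
Log2 difference, XY minus XX, of each chosen gene (diamond at 0) and of the 10 nearest tested genes on each side, against the distance between the lower coordinates of the genes in Mb; filled points had a limma adjusted p of at most 0.05. Gpx1 near Mst1 (2.76) and Prl8a2 near Agtr1a (2.06) are the highest neighbours, and most other points lie within 1 log2 unit of 0.

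Likeness of profiles was measured as the Euclidean distance between log2 levels over the 6 arrays, each gene centred on its own mean. Ugt2b38 was nearest to the tetraspanin gene Tspan8 (distance 0.15), the heat shock protein gene Hspb1 (0.30) and Lypd6b (0.35). Nearest to Afp were the ceramidase gene Acer1 and the mucin gene Muc15, both at 0.45, and Grb14 at 0.64. Mst1 was nearest to the syntaxin gene Stx19 (0.54), Gpx1 (0.69) and the transcription factor gene Fezf2 (0.79). For Slco1a4 they were the kinase gene Frk (0.55), Flrt3 (0.77) and Specc1 (0.89). Agtr1a was nearest to the lysosomal protease gene Ctsl (0.37), Gpx1 (0.66) and Muc15 (0.69), and Grb14 was nearest to Bcl2l15 (0.62), Afp (0.64) and Muc15 (0.71). Between the 6 genes themselves distances ran from 0.64 for Afp and Grb14 to 1.64 for Slco1a4 and Grb14. These distances include the difference between XY and XX by which the 6 genes were chosen.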

How the data were processed

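Each deposited value is the intensity of a probe set on a linear scale, and the submitters' processing notes name MAS5 alone, without a version or target. Trimmed means of the arrays differed (194 to 332), so the 6 columns, all used, were quantile-normalized over 45037 probe sets after 64 controls were set aside, which hides any change in total mRNA. Symbols came from the platform annotation and were updated by gene ID to GRCm38.p6.

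Tests ran on log2(intensity + 9), a pseudocount set at percentile 25 of the deposited values, which understates differences of dim genes. Probe sets reaching the array median on 3 or more arrays were kept (22997), and the brightest stood for its gene (12442 genes). XY was compared with XX in R 4.3.3 with limma 3.58.1 (lmFit, eBayes, Benjamini-Hochberg), a fit tested on simulated data. Member probe sets carry an SE from the SDs of both groups. With 3 arrays per group, their number limits the precision.

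Members and lists were chosen with earlier results of these data known. The genes named are all member probe sets, the 3 nearest profiles of each, list genes and neighbours that passed, and up to 5 list genes with the smallest p. Markers that define hepatocytes or oocytes were also named. Alternatives changed the scaling, pseudocount, filter, probe set per gene, variance model, replicate block, Actb covariate and arrays used. Counts of list genes exclude the 6 chosen genes. The labels' extraction protocol gives 3 females per group and 10 oocytes per sample.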

Additional observations from a re-analysis of the deposited data

How the results depend on the processing

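The log2 differences of the 6 genes stayed positive in all 90 recomputations, from 1.80 to 3.70, and 70 of them moved by less than the replicates' SD. Some of these outcomes were fixed in advance. The replicate block could not change a difference, because every replicate number occurs in both groups. The mean of probe sets could change only Afp, the only member with several kept probe sets. Leaving out 1 array gave 2.64 to 3.00 for Afp, 2.71 to 3.34 for Mst1, 2.84 to 3.09 for Slco1a4, 2.04 to 2.24 for Ugt2b38, 2.69 to 3.32 for Agtr1a and 2.47 to 3.20 for Grb14. The deposited values gave 2.75 for Slco1a4 and 1.95 for Ugt2b38, and median scaling 2.46 for Afp, 2.59 for Slco1a4 and 1.80 for Ugt2b38. With no pseudocount Mst1 was at 3.70 and Agtr1a at 3.69, and with a pseudocount of 32 Mst1 was at 2.37, Agtr1a at 2.08, Slco1a4 at 2.78 and Ugt2b38 at 1.94. The mean of its probe sets gave 1.91 for Afp. The Actb covariate gave 2.46 for Afp, 2.24 for Agtr1a, 2.08 for Grb14 and 3.34 for Slco1a4, and XX 1 alone, added after the data were seen, 2.48, 2.22, 2.06 and 3.34. Counts of calls were less stable, and the cause was not tested. The 1643 genes called became 1001 with the deposited values, 913 with no filter, 679 with the replicate block, 236 with the Actb covariate and 472 to 3307 without 1 array. The 10 liver-type list genes became 5, 5, 2 and 2 in those 4 settings, 16 with trimmed mean scaling, 6 with no pseudocount and 2 to 19 without 1 array. The 19 neighbours became 11 with no filter, 30 with a trended variance, 8 with the block, 3 with the covariate and 3 to 37 without 1 array. The 2413 probe sets called became 1378 with the deposited values, 617 with no filter, 3837 with a trended variance, 636 with the block, 17 with the covariate and 518 to 5098 without 1 array. Scaling also moved the balance of 978 higher and 665 lower genes: the deposited values gave 472 higher and 529 lower, median scaling 482 and 1622, and trimmed mean scaling 1423 and 586, while the median of all genes shifted to -0.12, -0.27 and 0.18. Same-numbered samples share only a number: their deviations correlated at -0.10, 0.00 and -0.04 for replicates 1, 2 and 3. Of genes named that did not pass, Afm turned to 0.21 with trimmed mean scaling and ran from -0.34 to 0.032 without 1 array, Hnf4a turned to -0.055 and Slco1a5 to -0.10 with the Actb covariate.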
